A study of Homo sapiens with 12 samples.

Results

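The cystatins are a family of small proteins that block cysteine proteases, and 9 of their genes were described here: CST1, CST2, CST3, CST4, CST5, CST6, CST7, CSTA and CSTB. The genes were found by an exact match of the gene name in a table of 60715 genes, and each of the 9 names matched. The family was chosen by a measured value, the fall of CST6 after 7 days without attachment, so the cystatin values of 7 days against attached are given as a description, with no p-value. Genes outside the family had no part in that choice, and their tests are given for each contrast. A filter on low counts left 17395 genes of the table and 7 of the 9 members, while CST5 and CST7 stayed under it. RNA sequencing had been done on 4 human lung adenocarcinoma cell lines in 3 states, 1 library for each line and state, 12 libraries in all. The lines are HCC4006, NCI-H2228, LC-2/ad and NCI-H2009, all established ones, and no sorting, drug or genetic change was part of the design. The attached libraries came from standard culture. For the detached states, trypsin-treated cells of the same line were kept on ultra-low attachment plates for 1 day or 7 days. All lines were kept in RPMI-1640 medium with serum and antibiotics. The attached library of a line is the control of both detached states, so the 2 detached comparisons share it. Loss of attachment, trypsin treatment, replating and culture time go together in this design and cannot be told apart. Since these are bulk samples, fewer cells that express a gene and less of its RNA per cell cannot be told apart either.

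Cystatins sit in the active-site cleft of papain-like proteases such as cathepsins B, L and S and hold them inactive. The stefins, CSTA and CSTB, have no signal peptide and act mainly inside the cell, whereas the CST genes code for proteins with a signal peptide that are mostly secreted. Several secreted members, among them the products of CST3, CST6 and CST7, also inhibit legumain, a protease of lysosomes that cuts after asparagine. CST1, CST2 and CST4 code for the salivary cystatins SN, SA and S. CST6, cystatin E/M, is known from the skin barrier and is often silenced in tumours.

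Levels are given as TPM, a length-scaled share of the library's transcripts with the same total in each library. The libraries held 31134420 to 41882024 estimated counts, so at the depth of each library a count of 0 allows up to 3 counts for counting error alone. None of the 7 listed lung adenocarcinoma epithelium markers was at 0 in any library, though NAPSA was as low as 1.896 TPM in attached LC-2/ad. The 12 leukocyte markers summed to 3.164 to 38.42 TPM in attached, 34.34 to 87.64 TPM in 1 day and 18.71 to 119.4 TPM in 7 day libraries, most of it from CD14 and CD68, and 6 to 8 of the 12 were at 0 in any one library. The 7 fibroblast markers summed to 6.277 to 376.6 TPM in attached, 6.046 to 183.3 TPM in 1 day and 4.391 to 45.98 TPM in 7 day libraries. The highest sum was in NCI-H2228 in each state, most of it from COL1A1. The part of the leukocyte and fibroblast markers in the cystatin values was not tested. Genes were tested with edgeR, with state and cell line in 1 model of the 12 libraries, and a gene passed at an adjusted p under 0.05. Because each line has 1 library per state, the p-values measure how much the changes between states differ from line to line. Differences in level between lines are taken out by the model, and changes inside a line have no test.

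The salivary cystatin genes are so alike that their reads may be shared. They lie together on the minus strand of chromosome 20 (GRCh38), and their coding sequences were compared in GENCODE release 29. Over the whole coding sequence CST1 and CST4 were 92.7% identical, CST2 and CST4 92.5% and CST1 and CST2 91.3%. CST6 lies apart from the cluster, at chr11:66012008-66013505 on the plus strand, and had 39.5% to 56.0% identity with the other members. Of all 50-base windows of the transcripts, 72.7% of those of CST1, 91.7% of CST2 and 69.8% of CST4 occurred in no other member. The share was 99.7% for CST5 and 100% for CST3, CST6, CST7, CSTA and CSTB. The estimated counts of CST1 and CST4 were not whole numbers in 6 of 12 libraries each, and those of CST2 in 4, whereas the other members had whole counts throughout. How the authors divided such reads is not given in the sources used here. The split between CST1, CST2 and CST4 is uncertain and their sum is reported beside them.

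Which member led the family differed between lines. CSTB led in all 3 states of NCI-H2009 and NCI-H2228, with 77.7% to 93.2% of the summed cystatin TPM. In LC-2/ad CST6 led in every state, with 74.2% in attached, 72.4% after 1 day and 38.5% after 7 days. HCC4006 was led by CST6 while attached, at 40.6%, and by CST4 afterwards, at 31.1% after 1 day and 59.0% after 7 days. Over the 4 attached libraries CST6 averaged 1133 ± 1248 TPM (SD, n = 4), CSTB 1127 ± 685 TPM and CST3 411 ± 285 TPM. These 3 means lie within each other's spread over lines, so no order among them holds for the lines together. CST5, CST7 and CSTA stayed at or below 5.416 TPM in all 12 libraries.

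**Figure D1:**
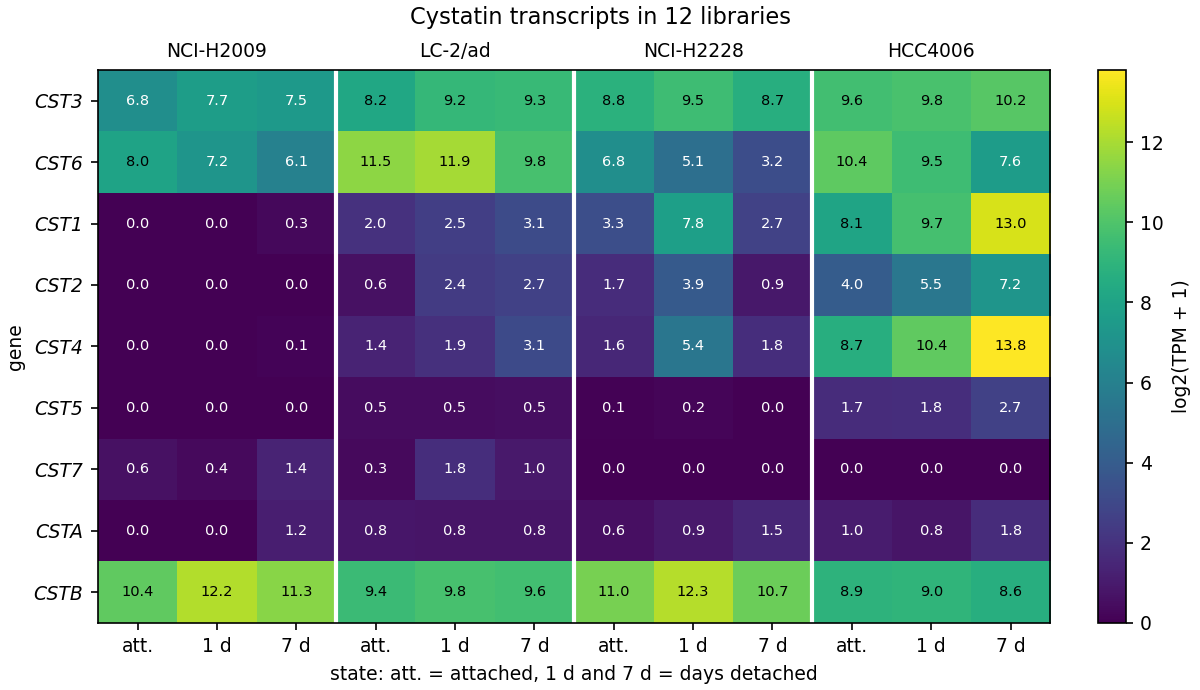
Heat map of TPM on a log colour scale for the 9 cystatin genes (rows) in the 12 libraries (columns, 3 states within each of 4 lines). CST6, CST3 and CSTB are seen in every library, CST1, CST2 and CST4 stand out in HCC4006, and CST5, CST7 and CSTA are low throughout.

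CST6 was lower after 7 days in each of the 4 lines. In NCI-H2009 it stood at 260.9 TPM attached, 144.7 TPM after 1 day and 65.7 TPM after 7 days. LC-2/ad gave 2814, 3866 and 897 TPM in the same order. NCI-H2228 had 112, 32.3 and 8.46 TPM, and HCC4006 1347, 729 and 198 TPM. The day 7 library was the lowest of its line each time, and LC-2/ad was the only line with a higher value at 1 day than attached. The groups overlap all the same, because the lines differ by more than the states: the highest line exceeded the lowest 25.19-fold attached, 119.7-fold after 1 day and 106-fold after 7 days. In LC-2/ad CST6 ranked 26 among all genes by TPM while attached, 19 after 1 day and 140 after 7 days.

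The attached level was 3.14 times the day 7 level in LC-2/ad, 3.97 times in NCI-H2009, 6.8 times in HCC4006 and 13.2 times in NCI-H2228. In the model the change was -2.61 ± 0.32 (SE) on the log2 scale. CST6 was 1 of the 7 tested members past the threshold at 7 days, where 0.103% of all genes tested passed, 18 of 17395. That contrast chose the family, and nothing is read from the count. With any 1 of the 4 lines left out the change lay between -2.85 and -2.24, and the count of members past the threshold was then 0.

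After 1 day the lines did not move together. CST6 was higher in LC-2/ad and lower in the other 3 lines, with a log2 change of -0.65 ± 0.31. The attached CST6 values had a part in choosing the family, so for CST6 this contrast is a description, with no p-value. Between 1 day and 7 days it was lower in 4 of 4 lines, by a log2 difference of -1.75 in NCI-H2009, -1.85 in HCC4006, -1.96 in NCI-H2228 and -2.21 in LC-2/ad. The model gave -1.95 ± 0.31. This contrast uses the same 4 day 7 libraries whose low CST6 values chose the family, so for CST6 it too is a description. In edgeR 0% of genes passed in it and 0 of 7 members, whereas 2 members and 1702 of 17395 genes (9.8%) had an unadjusted p under 0.05. DESeq2 called 193 genes there, 1 of them a member, and that member was CST6. Since its day 7 values chose the family, nothing is read from that call.

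**Figure D2:**
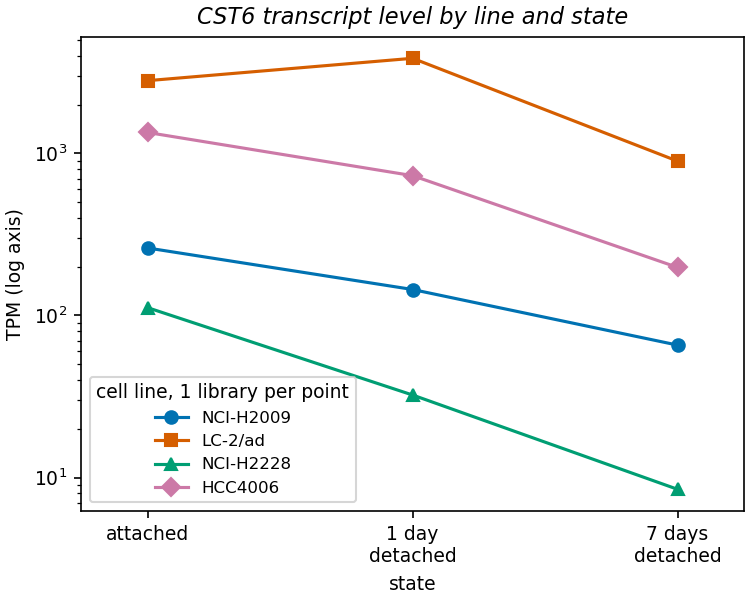
TPM of CST6 (log axis) in attached, 1 day and 7 day libraries, with a line joining the 3 libraries of each cell line. All 4 lines end lowest at 7 days, and only LC-2/ad is higher at 1 day than attached.

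The genes next to CST6 on chromosome 11 had smaller changes. CATSPER1, a sperm calcium channel gene, lies 3246 bases away and had a log2 change of -0.25 ± 0.57 at 7 days. BANF1, which codes for a protein that links chromatin to the nuclear lamina, is 7858 bases away and had -0.32 ± 0.19. EIF1AD at 9831 bases had -0.53 ± 0.21, and GAL3ST3 was at 0 TPM in every library. None of the 3 tested neighbours passed in edgeR, with adjusted p of 0.257 or more. Among 9923 protein-coding genes, the courses most like that of CST6 once the mean of each line was removed were those of PROCR (Pearson r = 0.982), VEGFC (0.921), SERPINB5 (0.917), PPP1R1C (0.915) and RANBP9 (0.915). These correlations run over 12 libraries of 4 lines that share their line and control, so they describe likeness only. PROCR, the endothelial protein C receptor gene, averaged 18.07 TPM attached, 12.28 TPM after 1 day and 6.499 TPM after 7 days. By level without removing the line mean, DNM3 (0.956), ORC5 (0.944), RPS6KB2 (0.932), LIG1 (0.93) and TSPAN2 (0.927) came closest.

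CST1, CST2 and CST4 were highest in HCC4006 in each of the 3 states, and their course differed from line to line. CST4 in HCC4006 stood at 406 TPM attached, 1377 TPM after 1 day and 14301 TPM after 7 days. CST1 in the same line had 271, 857 and 7959 TPM, and CST2 15.0, 43.0 and 146 TPM. From attached to 7 days these are 35.19-fold, 29.38-fold and 9.766-fold higher levels in 1 line with 1 library each. Together the 3 genes took 0.06923% of all TPM in attached HCC4006, 0.2277% after 1 day and 2.241% after 7 days. By then CST4 ranked 2 and CST1 ranked 6 among all genes of the library.

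NCI-H2228 had its highest values after 1 day. CST1 went from 8.79 TPM attached to 222 TPM after 1 day and 5.70 TPM after 7 days. CST4 had 1.94, 41.6 and 2.53 TPM, and CST2 2.36, 14.0 and 0.867 TPM. The 1 day library was 25.29-fold above attached for CST1 and 21.45-fold for CST4, and the day 7 library was below the 1 day library 39.01-fold for CST1 and 16.46-fold for CST4. In LC-2/ad all 3 genes stayed under 8 TPM: CST1 had 2.92, 4.79 and 7.79 TPM, CST4 1.60, 2.73 and 7.45 TPM, and CST2 0.539, 4.32 and 5.30 TPM. In NCI-H2009 the 3 genes had no counts while attached or after 1 day, and after 7 days CST1 had 3 counts, CST4 1 and CST2 0.

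The balance of the 3 genes differed between lines. In HCC4006 the TPM of CST4 was 1.5, 1.61 and 1.8 times that of CST1 in the 3 states, while in NCI-H2228 it was 0.22, 0.187 and 0.443 times and in LC-2/ad 0.548, 0.57 and 0.956 times. After 1 day the log2 change was 3.02 ± 1.41 for CST1 (edgeR adjusted p = 0.27), 2.52 ± 0.95 for CST2 (adjusted p = 0.201) and 2.91 ± 1.21 for CST4 (adjusted p = 0.224). The summed counts of the 3 genes gave 2.97 ± 1.27 and an edgeR adjusted p of 0.235, which did not pass either. At 7 days the changes were 3.19 ± 1.41, 2.44 ± 1.00 and 3.59 ± 1.23, and the sum had 3.38 ± 1.30. From 1 day to 7 days the model gave 0.16 ± 1.5 for CST1, -0.08 ± 0.97 for CST2 and 0.68 ± 1.27 for CST4, each far inside its error, with edgeR adjusted p of 0.873 to 0.984. Leaving out single lines or libraries moved the 1 day value of CST1 between 0.37 and 4.04, that of CST2 between 1.49 and 3.11 and that of CST4 between 0.68 and 3.86. The 7 day values moved as widely, from 0.89 to 4.22 for CST1, from 1.2 to 3.335 for CST2 and from 1.47 to 4.54 for CST4. For all 3 genes the lowest value came without the 1 day library of NCI-H2228 at 1 day and without the 7 day library of HCC4006 at 7 days.

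**Figure D3:**
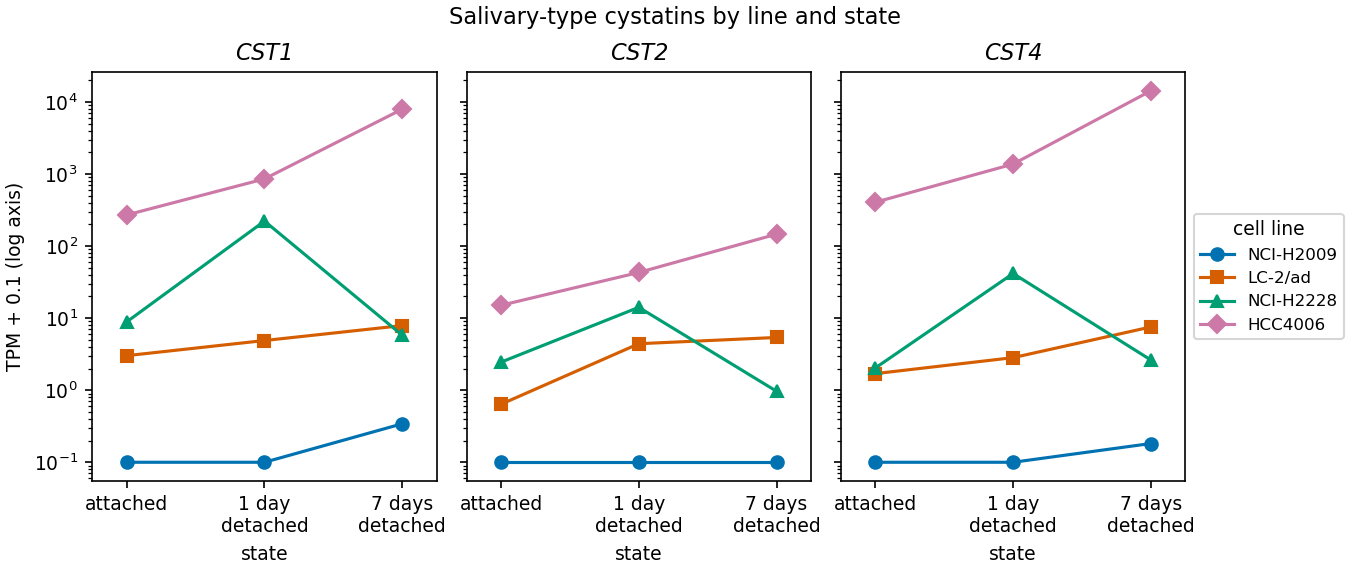
TPM of CST1, CST2 and CST4 by state for each cell line, 1 panel per gene. HCC4006 is highest in every panel at 7 days, and NCI-H2228 peaks at 1 day. The log axis shows TPM + 0.1, so that NCI-H2009 libraries with no counts appear at 0.1.

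Within lines CST1 and CST4 followed each other most closely of all members, with r = 0.977 over the 12 libraries after the line mean was removed. CST2 had r = 0.889 with CST4 and 0.886 with CST1. These values are those of genes that may share reads. The genes most like CST1 after CST4 were CADPS2 (0.961) and ACSS2 (0.95), those most like CST4 after CST1 were EEF1AKMT3 (0.957) and ACSS2 (0.952), and KCTD21 came first for CST2 (0.917).

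CST3 codes for cystatin C, the broadly secreted inhibitor of lysosomal cathepsins, and it was higher after 1 day in 4 of 4 lines. NCI-H2009 had 111 TPM attached, 205 TPM after 1 day and 178 TPM after 7 days. LC-2/ad had 303, 581 and 628 TPM, NCI-H2228 444, 740 and 408 TPM, and HCC4006 786, 903 and 1212 TPM. The mean went from 411 ± 285 TPM (SD, n = 4) to 607 ± 299 TPM and 606 ± 443 TPM, and the groups overlap. After 1 day 0 of 7 members passed in edgeR, where 0.489% of all genes tested passed, 85 of 17395. For CST3 the log2 change was 0.87 ± 0.23 with an edgeR adjusted p of 0.1. Of the 7 members, 4 had an unadjusted p under 0.05, as did 3418 of the 17395 genes (19.6%). DESeq2 called 1709 genes, 2 of them members, CST3 (adjusted p = 0.013) and CSTB (adjusted p = 0.0172). At 7 days CST3 had a change of 0.54 ± 0.23, with NCI-H2228 close to its attached level. From 1 day to 7 days it had -0.33 ± 0.23 (edgeR adjusted p = 0.631). CYBA (0.979), GPR137 (0.971) and CADM1 (0.964) followed it most closely by r.

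CSTB, stefin B, is a cytosolic inhibitor that binds cathepsins without a signal peptide, and it peaked after 1 day. NCI-H2009 had 1357 TPM attached, 4823 TPM after 1 day and 2563 TPM after 7 days. NCI-H2228 had 1988, 4908 and 1689 TPM, LC-2/ad 671, 877 and 783 TPM, and HCC4006 490, 518 and 397 TPM. In NCI-H2009 and NCI-H2228 the 1 day library was 3.553-fold and 2.469-fold above attached and CSTB ranked 13 among all genes, whereas in LC-2/ad and HCC4006 it was 1.308-fold and 1.057-fold. The log2 change was 1.08 ± 0.32 after 1 day, higher in 4 of 4 lines, with an edgeR adjusted p of 0.122. It was 0.09 ± 0.31 at 7 days, with 2 lines higher and 2 lower. From 1 day to 7 days it was -0.99 ± 0.32, lower in 4 of 4 lines, with an edgeR adjusted p of 0.48. CARHSP1 and TMED2 (both 0.973) and SLC39A1 (0.97) were the genes most like CSTB.

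**Figure D4:**
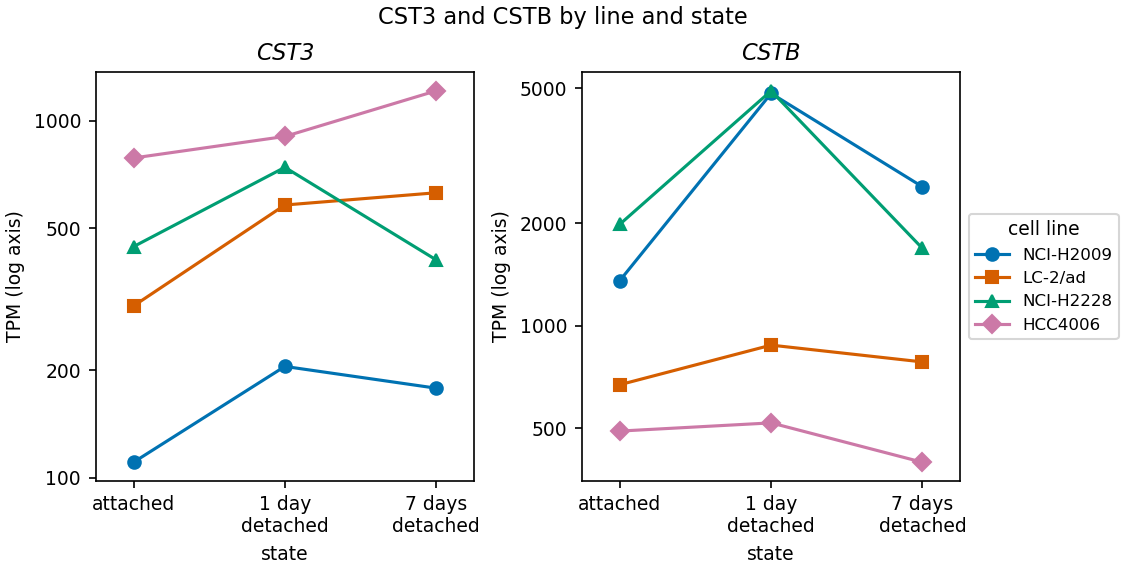
TPM of CST3 and CSTB (log axes) by state, with a line for each cell line. At 1 day both genes are above the attached level in all 4 lines, and at 7 days CSTB is below its 1 day level in all 4.

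The genes beside CSTB on chromosome 21 were not higher after 1 day by the size seen for CSTB. PDXK, which codes for pyridoxal kinase, had a log2 change of 0.02 ± 0.20 after 1 day, RRP1B -0.64 ± 0.18, RRP1 -0.48 ± 0.17 and AGPAT3 -0.01 ± 0.20. None of these 4 passed in edgeR, with adjusted p of 0.107 or more. The CSTB gene lies at chr21:43772511-43776330 on the minus strand.

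CSTA, stefin A, is a cytosolic inhibitor known from skin and leukocytes, and it was near the floor of detection. NCI-H2009 had no counts attached or after 1 day and 12 counts (1.27 TPM) after 7 days. That is 3.74-fold higher than attached when the attached 0 is set to the floor of 3 counts. The counting error of the 12 counts is not in this value, so the true difference may be smaller. NCI-H2228 had 0.487, 0.915 and 1.75 TPM and HCC4006 1.06, 0.692 and 2.43 TPM, so the 7 day library was highest in these 2 lines too. LC-2/ad was level, with 0.759, 0.749 and 0.737 TPM. The log2 change was 0.13 ± 0.93 after 1 day (edgeR adjusted p = 0.955), 1.81 ± 0.94 at 7 days and 1.68 ± 0.94 from 1 day to 7 days (edgeR adjusted p = 0.568). CSGALNACT2 (0.962), PTGR2 (0.946) and RASSF5 (0.94) were most like it. Of the genes around CSTA on chromosome 3, CASR and CD86 were under the filter, CCDC58 had -0.58 ± 0.38 and FAM162A 0.66 ± 0.22 after 1 day, and neither passed in edgeR.

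CST5 and CST7 were under the count filter and were not tested. CST5 was listed at 0 TPM in all NCI-H2009 libraries, at 0.373 to 0.44 TPM in LC-2/ad and at up to 0.16 TPM in NCI-H2228. HCC4006 had 2.354, 2.455 and 5.416 TPM, from 34, 32 and 71 counts, so the line that carried CST1 and CST4 was also the highest for CST5. The transcripts of CST1 and CST5 share a run of 51 bases. Whether reads of CST1 added to these few CST5 counts was not tested. CST7, cystatin F, is a cystatin of leukocytes that is targeted to their endosomes and granules. It had no counts in the NCI-H2228 and HCC4006 libraries, 0.515, 0.298 and 1.63 TPM in NCI-H2009 and 0.253, 2.46 and 0.956 TPM in LC-2/ad. CD2, NKG7 and GZMB were at 0 in all 12 libraries. PTPRC, the common leukocyte antigen, averaged 0.0615 TPM attached, 0.0805 TPM after 1 day and 0.268 TPM after 7 days. Some markers of that list had higher levels: CD14 reached 91.113 TPM and CD68 59.279 TPM. The 4 tested ones, CD14, CD68, LYZ and ITGAM, all had log2 changes above 0 at 1 day and at 7 days against attached. So did 8789 and 9171 of the 17395 genes tested. The median of the 4 was 2.11 at 1 day and 1.61 at 7 days, though LYZ reached no more than 2.043 TPM and ITGAM 0.934 TPM. In edgeR 0 of the 4 passed, where 0.489% and 0.103% of all genes tested passed.

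Cathepsins and legumain are the targets of the family. At 1 day 0 of 12 cysteine proteases, a list chosen with earlier results known, passed in edgeR, against 0.489% of all genes tested. Of the 12, 11 had a log2 change above 0, against 8789 of all 17395 genes tested. Their median was 0.995, against a median of 0.008 over all genes tested. At 7 days 0 passed, against 0.103% of all genes tested, and 10 of 12 were above 0, against 9171 of 17395. The median was 0.915, against 0.033. The smallest p values at 1 day were those of CTSB (1.06 ± 0.26, edgeR adjusted p = 0.0834), CTSC (0.90 ± 0.25, adjusted p = 0.106), CTSF (1.63 ± 0.51, adjusted p = 0.137) and LGMN, the legumain gene (1.07 ± 0.38, adjusted p = 0.164). Each of these was higher in 4 of 4 lines. CTSB codes for cathepsin B and CTSC for dipeptidyl peptidase 1, which activates granule proteases. At 7 days CTSB had 1.05 ± 0.26, CTSC 0.98 ± 0.25, CTSF 1.83 ± 0.53 and CTSO 1.38 ± 0.48, with edgeR adjusted p of 0.134 to 0.215. From 1 day to 7 days 0 of 12 passed, against 0% of all genes tested, and the median was -0.09. All counts of 0 here are by edgeR at an adjusted p under 0.05, and at these shares nothing is read from them.

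The summed TPM of the 9 cystatins per summed TPM of the 12 proteases was compared between libraries as a description. It stood at 1.951, 2.272 and 0.773 in NCI-H2009 over the 3 states, at 2.441, 1.998 and 0.9163 in LC-2/ad and at 0.5908, 0.6893 and 0.2466 in NCI-H2228. HCC4006 had 2.471, 2.385 and 10.78. Leaving out CST1, CST2 and CST4 gave 1.956, 1.159 and 0.808 in HCC4006, so the high value at 7 days there came from those 3 genes. Without them the attached ratio was 2.39 times the 7 day ratio in NCI-H2228, 2.42 times in HCC4006, 2.52 times in NCI-H2009 and 2.68 times in LC-2/ad. The protease sum itself was 1.98, 1.67, 4.1 and 1.64 times its attached level at 7 days in these lines, in the same order. In NCI-H2009 the cystatin sum was higher at 7 days, at 2810 TPM against 1729 TPM, and the lower ratio there goes with the higher protease sum. CST6, whose fall chose the family, is part of each of these ratios. In attached libraries CST6 made up 74.16% of the cystatin TPM in LC-2/ad, 40.58% in HCC4006, 15.09% in NCI-H2009 and 4.368% in NCI-H2228. The cystatin sum of LC-2/ad was 3794 TPM attached and 2331 TPM at 7 days, of which CST6 was 2814 and 897 TPM. In NCI-H2228, by contrast, CST6 was 4.368% of the cystatin TPM attached and 0.3999% at 7 days. The protease sum there was 4328 TPM attached and 8579 TPM at 7 days. The weight of CST6 in the lower 7 day ratios thus differed between lines. A ratio without CST6 was not formed, so these ratios are not read apart from that choice, nor as 1 change common to the lines.

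**Figure D5:**
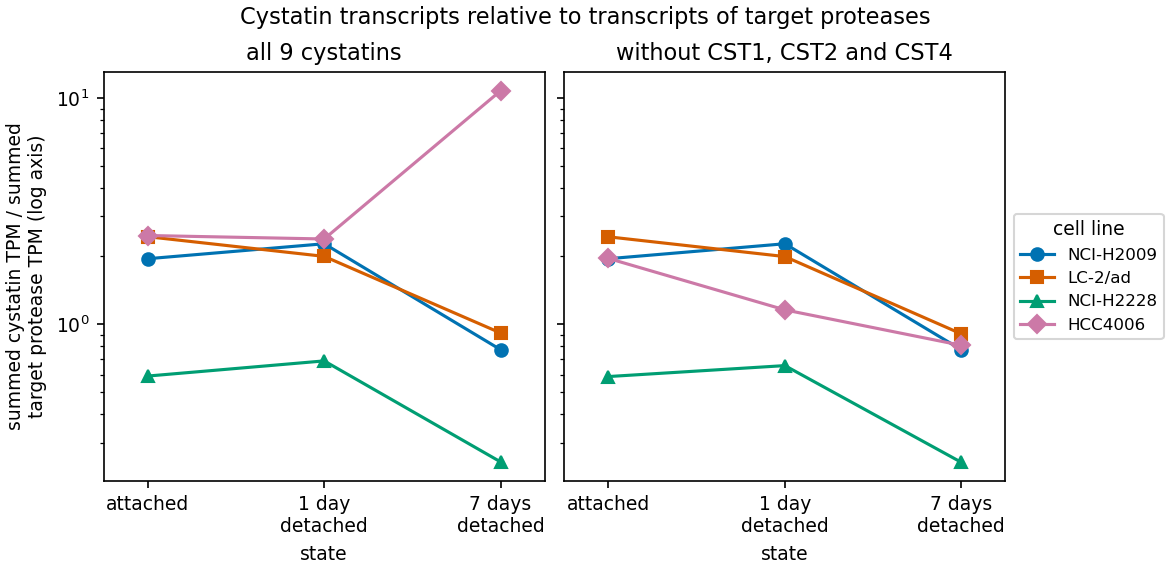
Ratio of summed cystatin TPM to summed TPM of 12 cysteine proteases by state for each line, with all 9 cystatins and without CST1, CST2 and CST4. With all 9 the HCC4006 value at 7 days is 10.78, and without those 3 genes all lines are lowest at 7 days. Both panels include CST6, whose fall at 7 days chose the family.

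Other protease inhibitors were described beside the cystatins from a list of 7 small secreted inhibitors of other families, of which 6 were tested. At 1 day 0 of 6 passed, against 0.489% of all genes tested. All 6 had a log2 change above 0, against 8789 of all 17395 genes, and the median was 0.922. The 7 tested cystatins had 6 above 0 and a median of 1.08. Among those above 0, CST1, CST2 and CST4 may share reads, and CSTA, at 0.13 ± 0.93, was near the floor. WFDC2 had 2.15 ± 0.51 (edgeR adjusted p = 0.0825) and SPINT1, an inhibitor of hepatocyte growth factor activator, 0.98 ± 0.24 (adjusted p = 0.0852). SLPI, the secretory leukocyte protease inhibitor, had 1.40 ± 0.64 and SPINT2 0.36 ± 0.22. At 7 days WFDC2 had 1.54 ± 0.50, SPINT1 0.78 ± 0.24 and SLPI 2.02 ± 0.69. Of the 6, 0 were past the threshold there, against 0.103% of all genes tested. The cornified envelope is the setting in which CST6 is best known. Its 8 tested genes had a median of -0.193 at 1 day and -0.113 at 7 days. Of these 8, 0 were past the threshold, beside the same shares over all genes, and nothing is read from that count. SCEL, the sciellin gene, had -1.45 ± 0.69 at 1 day and CNFN 0.66 ± 0.34. Of 9 further genes with cystatin domains, AHSG and HRG were tested and did not pass, and CST8, CST9, CST9L and CST11 were at 0 TPM in all 12 libraries.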

How the data were processed

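Per the submitters' processing notes the genome build is GRCh38, and the quantification tool is not given in the sources used here. The authors deposited TPM values and, in further columns, estimated counts, per the file headers. The TPM columns each sum to 1000000. Of the estimated counts above 0, 31.5% are not whole numbers. The other columns (identifiers, coordinates, gene length, read as other values) were deposited with them. Library totals ran from 31134420 to 41882024 estimated counts. PCR copies were not marked, so intervals and floors cover counting error only.

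The rounded estimated counts went into edgeR 4.0.16 (R 4.3.3): filterByExpr by state, TMM scaling, 1 robust quasi-likelihood model of state and cell line over 12 libraries (6 residual degrees of freedom). The SE is the log2 fold change divided by the root of its F statistic. Benjamini-Hochberg adjustment covered every tested gene, with a threshold of 0.05. Pairing comes from the shared cell line. Libraries of the same line had correlated deviations from the state means, at 0.72 to 0.82. DESeq2 1.42.0 and limma 3.58.1 on log2(TPM + 1) served as alternatives. Changes of a single line are log2 CPM differences (prior count 2). Floors use 3 counts per library.

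The members and gene lists were chosen with earlier results of these data known. Named genes were all 9 members, up to 4 of each further list by smallest p, the 3 (CST6: 5) most like genes among protein-coding genes whose mean TPM reached 5, and 2 neighbours on each side of CST6, CSTA and CSTB. A planned comparison of protein sequences was replaced by coding sequences of GENCODE 29, as no protein table was used here. The sequences themselves are not reported here.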

Additional observations from a re-analysis of the deposited data

Results flagged for a closer look

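Several cystatin values stand far from the other 3 lines of their state by Dixon's test at 95%, taken on TPM. Of 34 groups looked at, 11 had such a value. A chance rate of about 1 in 20 groups holds only for independent groups of normally distributed values. These groups repeat the same lines over states and genes and are not independent. The count is therefore not compared with that rate, and the flagged values are a description. In HCC4006 these were CST1 at 270.91 TPM attached and 7959.2 TPM after 7 days, CST2 at 14.988 and 146.38 TPM in those states, and CST4 at 406.4, 1377.1 and 14301 TPM in the 3 states. CST5 in the same line had 2.354, 2.455 and 5.416 TPM. In LC-2/ad CST7 had 2.464 TPM after 1 day.

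Some members moved in opposite directions in 2 lines, and the difference was not tested because each line has 1 library per state. From 1 day to 7 days the log2 change of CST1 was 3.235 in HCC4006 and -5.387 in NCI-H2228, that of CST4 3.385 and -4.067, and that of CST2 1.779 and -3.891. From attached to 7 days CST2 had 3.360 in HCC4006 and -1.246 in NCI-H2228. CST7 had 1.543 in NCI-H2009 and -1.339 in LC-2/ad from 1 day to 7 days.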

How the results depend on the processing

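Of 520 member values under alternatives, 477 kept their direction and side of the threshold. The count of cystatins past it at 1 day (0 of 7) became 2 with DESeq2. At 7 days (1 of 7) it became 0 with no replicate block and with only the 2 states compared, and 0 to 1 with a line or library left out: 9 of 12 single libraries ended the call of CST6, all but the 1 day library of NCI-H2009 and the attached ones of LC-2/ad and NCI-H2228. From 1 day to 7 days (0 of 7) it became 1 with DESeq2 and 1 with no low-count filter, CST6 both times. The day 7 values of CST6 chose the family, so nothing is read from its calls.

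Over all genes the 85 calls at 1 day became 0 with no replicate block, 2 with DESeq2 size factors, 1709 with the DESeq2 Wald test, 265 with no low-count filter, 225 and 223 with limma on log2(TPM + 1) and log2(TPM + 0.1), 0 with only 2 states, and 0 to 6 with a line or library left out. The 18 at 7 days became 0 with no replicate block, 6 with DESeq2 size factors, 1162 with the DESeq2 Wald test, 114 with no low-count filter, 29 with TPM of at least 1 in 4 libraries, 1 with only 2 states and 0 to 69 with a line or library left out. The 0 from 1 day to 7 days became 193 with the DESeq2 Wald test, 6 with no low-count filter and 1 with limma on log2(TPM + 0.1).

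Direction reversed for CST6 at 1 day without the replicate block (0.16), CST2 from 1 day to 7 days without the block (1.31) and with the 3 genes summed (0.41), and CST1 there by limma on log2(TPM + 1) (-0.23). With a line or library left out, CSTB at 7 days ranged from -0.15 to 0.31, CSTA at 1 day from -0.24 to 0.54, and from 1 day to 7 days CST1 from -2.04 to 2.38, CST2 from -1.28 to 0.98 and CST4 from -1.31 to 2.63. The cause was not tested.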
